A study of Mus musculus with 12 samples.

Results

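Mitochondrial ribosomal protein genes encode the protein part of the ribosome that works inside mitochondria. They were chosen by symbol: every probe set with a single gene symbol that starts with Mrps (small subunit) or Mrpl (large subunit) and goes on with a digit was taken, and where a gene had several, the brightest by its mean over the 6 arrays stands for it, those ending in _x_at only where no other existed. This gave 74 genes, 29 of the small and 45 of the large subunit, of 20752 genes that had such a probe set. The measurements came from mice in which PABPC1-FLAG, a tagged poly(A)-binding protein, was expressed under the fos promoter in the basolateral amygdala (BLA), a brain region that handles both fear and reward. Mice of the group shock received footshocks and mice of the group female met a female mouse, and RNA bound to the tagged protein was recovered by immunoprecipitation against FLAG and hybridised to Affymetrix Mouse 430 2.0 arrays. There were 3 arrays a group, and each of the 6 arrays appears among the samples both with RMA and with MAS5 values, 12 samples in all. The labels give no strain, age or sex, and there was no untreated group. The design note speaks of RNA pooled from 2 mice a sample and of 3 mice a group, so arrays of a group may share mice, and p-values measure the spread between these arrays.

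The mitochondrial ribosome translates the few messages of the mitochondrial genome, which encode core subunits of the respiratory chain. Its RNA is encoded in mitochondria, while all of its proteins are encoded in the nucleus, made in the cytosol and imported. The small subunit holds the decoding site, and the large subunit holds the peptidyl transferase centre and the exit tunnel. Many of the proteins have bacterial counterparts, and others exist only in mitochondria.

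The labelled tissue was checked with marker lists. All 8 listed excitatory neuron markers and all 6 inhibitory ones were among the probe sets bright enough to be tested, but so were all 8 oligodendrocyte and all 8 astrocyte markers, 7 of 8 microglial and 7 of 8 vascular ones. Of all 20752 genes, 13203 passed the same filter, which ranks brightness and does not show that an RNA was present. Glial and vascular marker genes thus gave signal above the filter beside neuronal ones. With such bulk RNA, fewer cells of a type and less RNA per cell cannot be told apart. The arrays also differed in how signal was spread along transcripts. Over 2647 genes with a 5′ and a 3′ probe set, the median 5′ minus 3′ signal was -0.98, -0.83 and -0.89 (log2) on the shock arrays and -0.71, -0.47 and -0.74 on the female arrays, so that it was lower on every shock array. The difference between the 3′ and the 5′ control probe set of Gapdh was 4.51, 4.14 and 4.64 (log2) on the shock arrays against 3.36, 2.52 and 3.13 on the female arrays.

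The starts of 7 of the genes are shown because they carry the changes described next together with sequence motifs that recur at these promoters. Each stretch runs from 150 bases before to 30 bases after the start of the RefSeq transcript (GRCm38.p6), 5′ to 3′ on the gene's strand, with the motif matches in capitals. The motifs were the core of the ETS family, which includes the GABPA subunit of NRF2 (CCGGAAG), that of NRF1 (10 letters with 1 of them free), that of YY1 (AANATGGCG) and the TATA box (TATAAA), each on both strands. These factors are known regulators of nuclear genes for mitochondrial proteins. Mrps11 (chr7:78782981-78783160, plus strand) holds a YY1 match, and Mrps18a (chr17:46110854-46111033, plus strand) holds an ETS and a YY1 match.
Mrps11: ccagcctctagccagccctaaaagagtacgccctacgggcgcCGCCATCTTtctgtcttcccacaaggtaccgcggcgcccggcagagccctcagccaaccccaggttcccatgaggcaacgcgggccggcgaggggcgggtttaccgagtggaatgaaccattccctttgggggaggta
Mrps18a: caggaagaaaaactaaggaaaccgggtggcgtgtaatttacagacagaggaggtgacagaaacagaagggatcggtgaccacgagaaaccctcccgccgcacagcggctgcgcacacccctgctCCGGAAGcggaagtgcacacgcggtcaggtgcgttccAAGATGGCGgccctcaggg
Mrps12 (chr7:28741792-28741971, minus strand) holds an ETS match at its start, and Mrpl43 (chr19:45006413-45006592, minus strand) holds 2 of them.
Mrps12: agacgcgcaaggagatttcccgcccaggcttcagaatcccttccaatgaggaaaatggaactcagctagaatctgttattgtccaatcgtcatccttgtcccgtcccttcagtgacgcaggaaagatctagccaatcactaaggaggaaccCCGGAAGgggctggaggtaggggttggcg
Mrpl43: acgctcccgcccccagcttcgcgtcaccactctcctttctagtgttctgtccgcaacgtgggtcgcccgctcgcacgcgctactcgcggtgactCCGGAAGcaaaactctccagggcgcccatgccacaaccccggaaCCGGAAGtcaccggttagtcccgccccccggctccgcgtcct
Mrpl17 (chr7:105811058-105811237, minus strand), Mrpl12 (chr11:120484487-120484666, plus strand) and Mrpl44 (chr1:79775868-79776047, plus strand) each hold an NRF1 match, Mrpl17 has an ETS match further upstream, and Mrpl44 is shown because it was the only member called in the other direction.
Mrpl17: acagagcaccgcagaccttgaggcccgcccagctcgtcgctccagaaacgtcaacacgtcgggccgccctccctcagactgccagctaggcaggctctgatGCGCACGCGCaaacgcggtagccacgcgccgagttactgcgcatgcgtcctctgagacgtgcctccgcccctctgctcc
Mrpl12: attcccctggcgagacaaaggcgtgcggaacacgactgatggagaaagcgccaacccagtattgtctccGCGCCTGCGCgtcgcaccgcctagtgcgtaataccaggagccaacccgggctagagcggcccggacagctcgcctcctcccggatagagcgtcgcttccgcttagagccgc
Mrpl44: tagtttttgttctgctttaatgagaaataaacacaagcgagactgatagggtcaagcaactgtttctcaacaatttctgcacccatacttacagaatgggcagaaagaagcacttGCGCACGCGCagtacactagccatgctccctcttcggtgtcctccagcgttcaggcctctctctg

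A RefSeq promoter window of 300 bases, from 250 before to 50 after the start, was matched to 65 of the 74 genes; Mrpl4, Mrpl13, Mrpl15, Mrpl19, Mrpl38, Mrpl54, Mrps28, Mrps34 and Mrps35 were not matched. The ETS core was found at 23 of them (35.4%), against 9.93% of all 27025 genes in the promoter table and 19.0% of those tested on the arrays. The NRF1 core was found at 11 genes (16.9%, against 5.19% of all genes and 11.4% of those tested). The YY1 core was found at 10 genes (15.4%, against 2.76% and 5.86%), and 38 genes (58.5%) held at least 1 of the 3 cores, against 15.9% of all genes and 31.5% of those tested. The TATA box was rarer than among all genes, at 5 genes (7.69%, against 15.7% of all and 8.95% of those tested). A gene on the other strand that starts within 300 bases, head to head, stood beside 19 of the 65 genes (29.2%), against 9.44% of all genes and 15.2% of those tested. In these windows no match of a motif overlapped one of another motif. The matches describe letters in the windows and were not tied to binding here.

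After footshocks, RNA of many mitochondrial ribosomal protein genes was lower than after exposure to a female. Of the 74 genes, 73 were tested, and Mrpl14 stayed out because its mean RMA value of 5.68 lay below the filter of 6.31. By limma (adjusted p under 0.05, Benjamini-Hochberg over all 27022 tested probe sets), 17 of the 73 genes (23.3%) were lower in shock, and 9.40% of all 13203 tested genes were. Only Mrpl44 was higher in shock (1.37% of the members), while 10.6% of all tested genes were. The other 55 genes did not pass the test. By symbol, both subunits took part, with 6 of 29 small-subunit genes and 11 of 44 large-subunit genes lower. Subunits were assigned by symbol throughout, which need not match the structure for every member. Mrps18a, for example, counts as small, although structures place its protein in the large subunit.

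The median difference, shock minus female on the log2 RMA scale, was -0.13 over the 29 small-subunit and -0.12 over the 44 large-subunit genes, against 0.06 over all tested genes. Its quartiles over the 73 genes were -0.32 and 0.04, against -0.15 and 0.26 over all tested genes. The sign was negative for 51 of the 73 genes (69.9%) and for 42.3% of all tested genes. In 32 genes, 12 small and 20 large, the 3 shock arrays all lay below the 3 female arrays, against 20.0% of all tested genes. In 8 genes, 3 small and 5 large, they all lay above, against 28.7% of all tested genes. The 17 lower genes were 1.25 to 1.82 times higher in female than in shock, so the changes were modest in size.

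**Figure D1:**
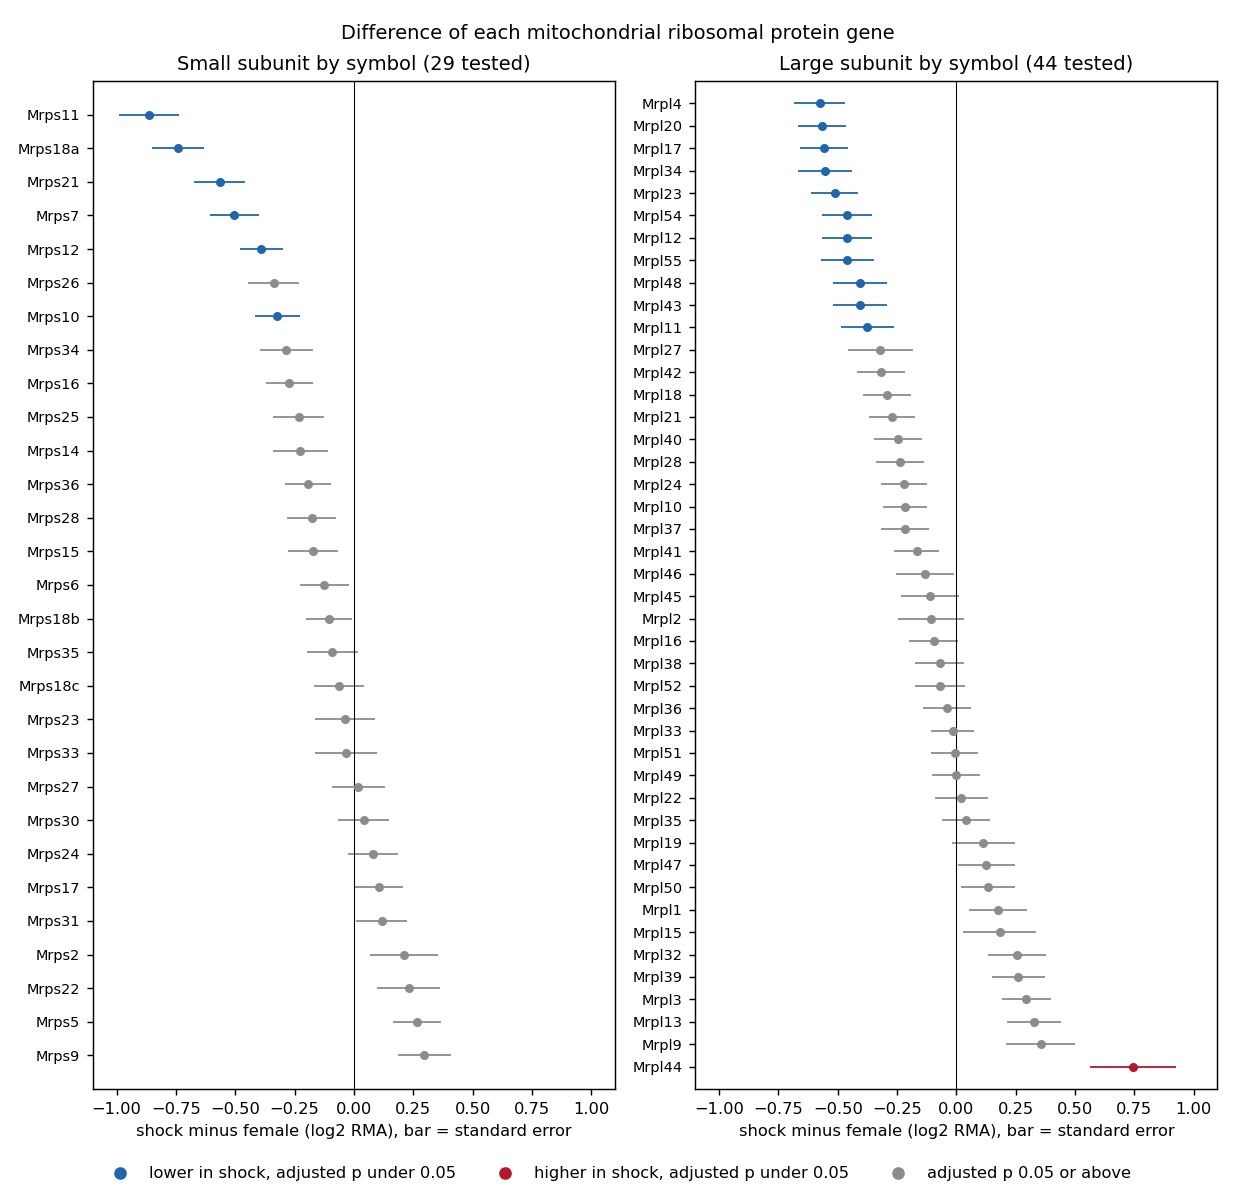
Difference between shock and female for each tested gene of the small (left) and the large subunit (right), in log2 RMA units with the standard error of the limma fit as a bar. Genes called lower in shock are blue, the gene called higher is red and the rest are grey. The called genes reach from -0.86 (Mrps11) to 0.74 (Mrpl44), and most grey points of both subunits lie left of 0.

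In the small subunit the greatest difference belonged to Mrps11, a protein of the subunit's platform. Its RMA values were 7.69, 7.57 and 7.64 on the shock arrays and 8.23, 8.55 and 8.70 on the female arrays. The groups were well apart, and the female arrays spread more widely (SD 0.24, n = 3) than the shock arrays (SD 0.06, n = 3). The difference was -0.86 ± 0.13 (SE) with an adjusted p of 0.00577 in limma, which makes RNA of Mrps11 1.82 times higher in female. A second Mrps11 probe set gave -0.87 with an adjusted p of 0.00673. In the deposited table the representative of Mrps11 lies on chromosome 7 from 78783118 to 78792989, as it stands there, without a genome build in the sources used here.

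Mrps18a was next. It was named for the small subunit, and structures of the mammalian ribosome place its protein in the large subunit. Its values were 8.54, 8.84 and 8.62 in shock and 9.36, 9.44 and 9.42 in female. All female arrays lay close together and above every shock array, with a difference of -0.74 ± 0.11 (SE) and an adjusted p of 0.00558 in limma. Mammals have 2 further genes for proteins of the same bacterial type, Mrps18b and Mrps18c, and neither passed the test. Mrps18b read 9.16, 9.15 and 9.13 in shock and 9.21, 9.19 and 9.36 in female (difference -0.11, adjusted p = 0.433 in limma). Mrps18c read 10.28, 10.30 and 10.27 in shock and 10.28, 10.26 and 10.51 in female (difference -0.06, adjusted p = 0.67 in limma). The Mrps18b arrays did not overlap but lay within a narrow band, and those of Mrps18c overlapped. The difference between the paralogues' responses was not itself tested.

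The other lower genes of the small subunit were Mrps21, Mrps7, Mrps12 and Mrps10. Mrps7 is a head protein that contacts the ribosomal RNA, and it read 9.24, 9.27 and 9.44 in shock against 9.75, 9.89 and 9.81 in female (difference -0.50 ± 0.10 SE, adjusted p = 0.0139 in limma). Mrps12, a protein of the decoding centre, read 9.10, 9.07 and 9.09 in shock against 9.47, 9.5 and 9.47 in female. Its groups were the tightest of these, with an SD of 0.02 in each (n = 3), and the difference was -0.39 (adjusted p = 0.0207 in limma). Mrps10, another head protein, read 8.71, 8.66 and 8.76 in shock against 8.98, 9.0 and 9.11 in female (difference -0.32, adjusted p = 0.0415 in limma). Mrps21 differed by -0.57 (adjusted p = 0.0112 in limma), but the deposited table places its probe set on another chromosome than RefSeq gives for the gene, which also holds for the uncalled Mrps36 and Mrpl47. In none of the 4 lower genes of this paragraph did the groups overlap. Mrps26 missed the threshold closely, at -0.34 with an adjusted p of 0.0509 in limma.

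Mrpl46 and Mrps11 start head to head, 42 bases apart, so that a protein of each subunit shares that stretch of promoter. Mrpl46 read 8.49, 8.77 and 8.77 in shock and 8.77, 8.68 and 8.98 in female. These groups overlapped, and the difference was -0.13 (adjusted p = 0.438 in limma), against -0.86 for Mrps11. The within-array difference Mrps11 minus Mrpl46 was -0.80, -1.21 and -1.14 in shock and -0.54, -0.13 and -0.28 in female. Its group means were -1.05 ± 0.22 and -0.32 ± 0.20 (SD, n = 3), which do not overlap, and the exact 2-sided permutation p was 0.1, the smallest that 3 against 3 arrays allow. Mrps11 had the greatest difference of all members in these same data, so the separation of this pair gives no independent support.

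**Figure D2:**
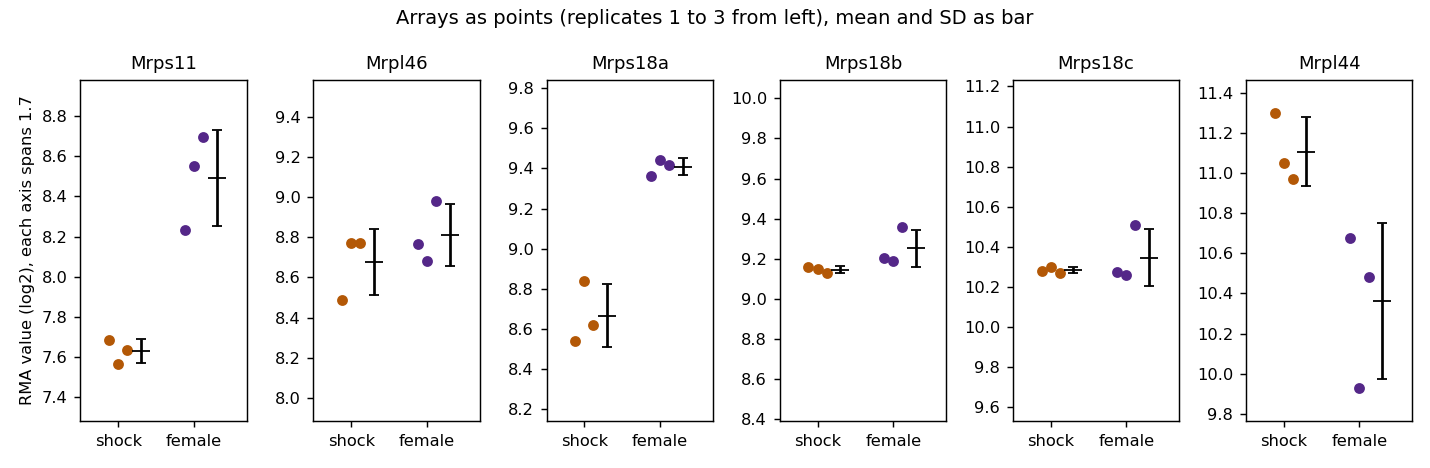
RMA values (log2) of 6 genes on each array, with orange points for shock, purple points for female and the group mean with its SD as a bar. Every vertical axis spans 1.7 units, and levels of different genes are not comparable. Mrps11 and Mrps18a separate in 1 direction and Mrpl44 in the other, while Mrpl46 and Mrps18c overlap and Mrps18b differs little.

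Among large-subunit genes with bacterial counterparts, Mrpl4, Mrpl20, Mrpl17, Mrpl34, Mrpl23, Mrpl12 and Mrpl11 were lower in shock. Mrpl4 read 8.29, 8.59 and 8.49 in shock and 9.01, 9.10 and 8.99 in female (difference -0.58 ± 0.11 SE, adjusted p = 0.0114 in limma). Mrpl20 read 9.64, 9.64 and 9.82 in shock and 10.23, 10.33 and 10.24 in female (difference -0.57 ± 0.10 SE, adjusted p = 0.00906 in limma). For both genes every female array lay above every shock array by more than the range within either group. Mrpl17 read 8.12, 8.08 and 8.08 in shock and 8.53, 8.66 and 8.76 in female (difference -0.56 ± 0.10 SE, adjusted p = 0.00968 in limma). Mrpl34 had the lowest mean of the tested members, and its arrays read 6.58, 6.71 and 6.87 in shock against 7.16, 7.29 and 7.37 in female (difference -0.55, adjusted p = 0.0139 in limma). The shock arrays of Mrpl17 were nearly equal, whereas those of Mrpl34 were spread out, and in neither gene did the groups overlap.

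Mrpl23, a protein at the exit of the peptide tunnel, read 8.33, 8.46 and 8.45 in shock and 8.84, 8.99 and 8.95 in female (difference -0.51, adjusted p = 0.0119 in limma). Mrpl12 forms the stalk that recruits translation factors, and it read 9.21, 9.27 and 9.28 in shock and 9.56, 9.78 and 9.80 in female (difference -0.46, adjusted p = 0.0185 in limma). Mrpl11, at the base of that stalk, read 8.63, 8.68 and 8.87 in shock and 9.10, 8.98 and 9.22 in female. Its difference of -0.37 (adjusted p = 0.0404 in limma) was seen with the representative alone. The other 3 tested Mrpl11 probe sets gave 0.05, 0.12 and 0.01 and were not called, and both that end in _x_at had higher mean values than the representative. Mrpl55 has no bacterial counterpart. It read 8.49, 8.31 and 8.36 in shock and 8.70, 9.0 and 8.84 in female, without overlap (difference -0.46, adjusted p = 0.0228 in limma).

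Proteins found in mitochondria and not in bacteria were among the lower genes of the large subunit too. Mrpl54 read 6.91, 6.98 and 7.06 in shock and 7.31, 7.55 and 7.48 in female (difference -0.46, adjusted p = 0.0195 in limma). Its groups did not overlap. Mrpl48 differed by -0.41 (adjusted p = 0.0343 in limma), and a second probe set of it gave 0.03. Mrpl43 also differed by -0.41 (adjusted p = 0.0362 in limma), with 9.02, 9.30 and 9.37 in shock and 9.66, 9.66 and 9.59 in female. In Mrpl43 the array shock 1 lay apart from the other shock arrays.

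Mrpl44, whose protein has an RNase III-like fold, was the only member that was higher in shock. It read 11.30, 11.05 and 10.97 in shock and 10.68, 9.93 and 10.48 in female. The groups did not overlap, and the array female 2 lay far below the other female arrays. The difference was 0.74 ± 0.18 (SE) with an adjusted p of 0.0231 in limma, and without female 2 it was 0.53 with an adjusted p of 0.0121. A second probe set gave 0.59 (adjusted p = 0.033 in limma), and another gave -0.04. The call was lost without any of the shock arrays, with an adjusted p of 0.111 without shock 1, 0.0668 without shock 2 and 0.0598 without shock 3.

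The next largest positive differences of each subunit did not pass the test. In the large subunit they were 0.36 for Mrpl9, 0.33 for Mrpl13 and 0.29 for Mrpl3. In the small subunit they were 0.30 for Mrps9, 0.27 for Mrps5, 0.23 for Mrps22 and 0.21 for Mrps2. A second Mrps2 probe set had the opposite sign, at -0.31 (adjusted p = 0.0699 in limma), with every shock array below every female array. Mrpl3 binds near the peptidyl transferase centre, and it read 10.67, 10.56 and 10.74 in shock and 10.37, 10.25 and 10.46 in female (adjusted p = 0.0664 in limma). Mrpl13 read 10.28, 10.15 and 10.24 in shock and 10.03, 9.70 and 9.96 in female (adjusted p = 0.0644 in limma). The groups of both genes were apart by less than the range of the female arrays.

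None of the brightest members of either subunit was called. In the large subunit these were Mrpl52 (-0.07), Mrpl39 (0.26), Mrpl41 (-0.17) and Mrpl51 (-0.01), and in the small subunit Mrps24 (0.08), Mrps33 (-0.03), Mrps15 (-0.17) and Mrps6 (-0.13). The 36 brighter members had a median difference of -0.07 with 6 lower and 1 higher, and the 37 dimmer ones -0.22 with 11 lower. Spearman's rho between difference and mean RMA value was 0.28 over the 73 genes, which share the same 6 arrays. Over all tested genes, 9.40% were lower and 10.6% higher. Neither this split by brightness nor the rho was computed over them, so the trend cannot be called particular to the members. Brightness depends on the probes as well as on the RNA, so it does not rank the genes by amount. Mrpl33 hardly varied, with an SD of 0.01 in each group (n = 3) and a difference of -0.02.

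Arrays of a group did not all take part alike. Over the 17 lower genes the median deviation from the gene's mean was -0.34, -0.23 and -0.20 (log2) on shock 1, 2 and 3, and 0.17, 0.32 and 0.26 on female 1, 2 and 3. The lowest value of these genes was on shock 1 in 11 of them and on shock 2 in the other 6, and the highest was on female 2 in 10 and on female 3 in 7. Over all 73 genes the median deviation was -0.11, -0.10 and -0.02 on the shock arrays and 0.06, -0.00 and 0.14 on the female arrays. Female 2 thus held the highest values of many lower genes without standing high over all members. Among the 22 genes of positive sign, female 2 was the lowest array in 20. Female 2 was also the array with the smallest 5′ to 3′ gap, and its part in these values was not tested.

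**Figure D3:**
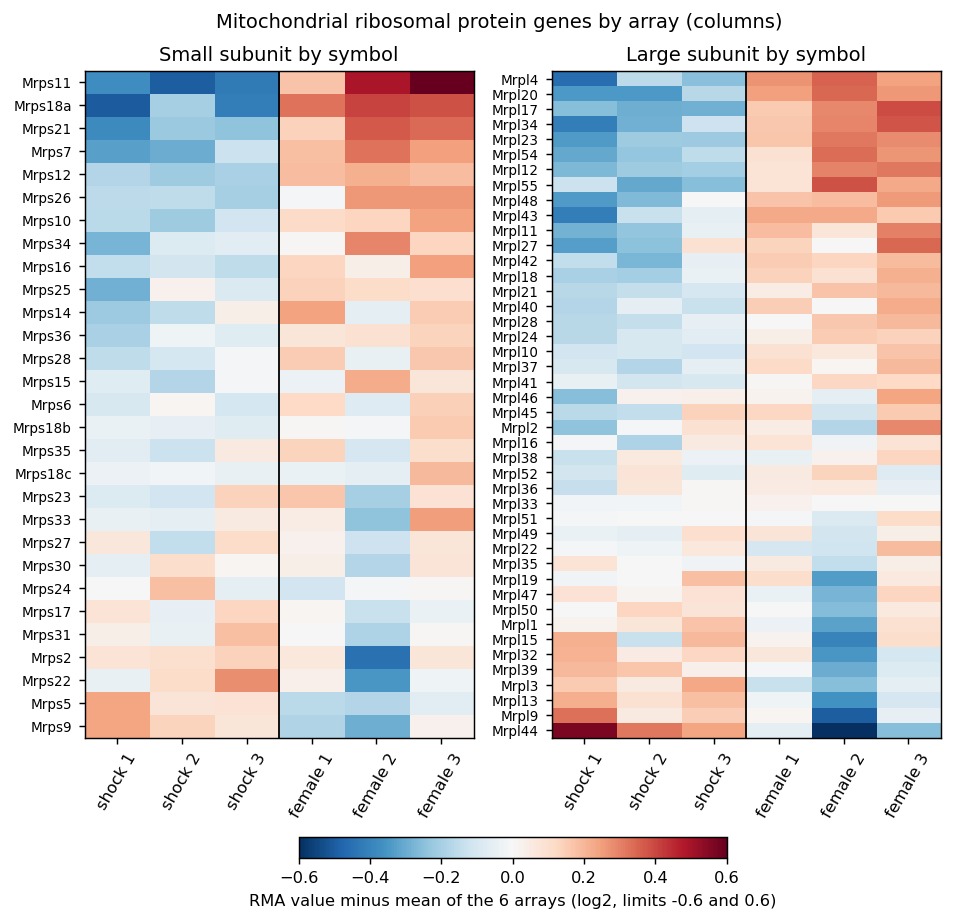
RMA value (log2) of each tested gene on each array minus the mean of its 6 arrays, small subunit left and large subunit right, genes ordered by the difference between groups. Blue is below and red above the mean, and colours stop at -0.6 and 0.6. The upper rows are blue on all shock arrays and red on the female arrays, and the lower rows are darkest blue on female 2.

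All but 2 of the 18 calls were lost in at least 1 of the 6 fits that leave out an array. Without shock 1, 2 or 3, the number of members called lower fell from 17 to 2, 7 and 10, while 1.05%, 4.39% and 3.49% of all tested probe sets were called lower. Without female 1, 2 or 3 it was 15, 21 and 10, against 12.2%, 11.7% and 7.64% of all tested probe sets. Only Mrps11 and Mrps18a were called in each of these 6 fits. Mrps11 then ranged from -0.99 to -0.76 and Mrps18a from -0.83 to -0.68. Some genes that lost the call kept differences of similar size, such as Mrps12 (-0.40 to -0.38, not called without any of the shock arrays), Mrpl23 (-0.56 to -0.47) and Mrpl17 (-0.62 to -0.50). Others varied more, such as Mrpl43 (-0.48 to -0.30), Mrpl48 (-0.51 to -0.34) and Mrpl44 (0.53 to 0.90). In each of the 17 lower genes the difference stayed negative in all 6 fits.

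The same 2 genes were the only members called on the MAS5 values of the same arrays, as log2(value + 16), where 1.89% of all tested probe sets were lower. Mrps11 had MAS5 intensities of 228, 230 and 155 in shock and 384, 433 and 529 in female (difference -1.09 on that scale, adjusted p = 0.0338 in limma). Mrps18a had intensities of 617, 531 and 571 in shock and 832, 1061 and 931 in female (difference -0.70, adjusted p = 0.0498 in limma). For both genes the intensities of the groups did not overlap. The median over the 73 genes was -0.17 on MAS5 values and -0.13 on RMA values. The scales differ in level, however. The median MAS5 intensity of the whole array was 158, 156 and 148 in shock and 166, 194 and 164 in female, whereas the RMA medians of the arrays were nearly level. A MAS5 median over all tested genes was not computed, and the part of this array-wide shift in the members' median was not tested.

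**Figure D4:**
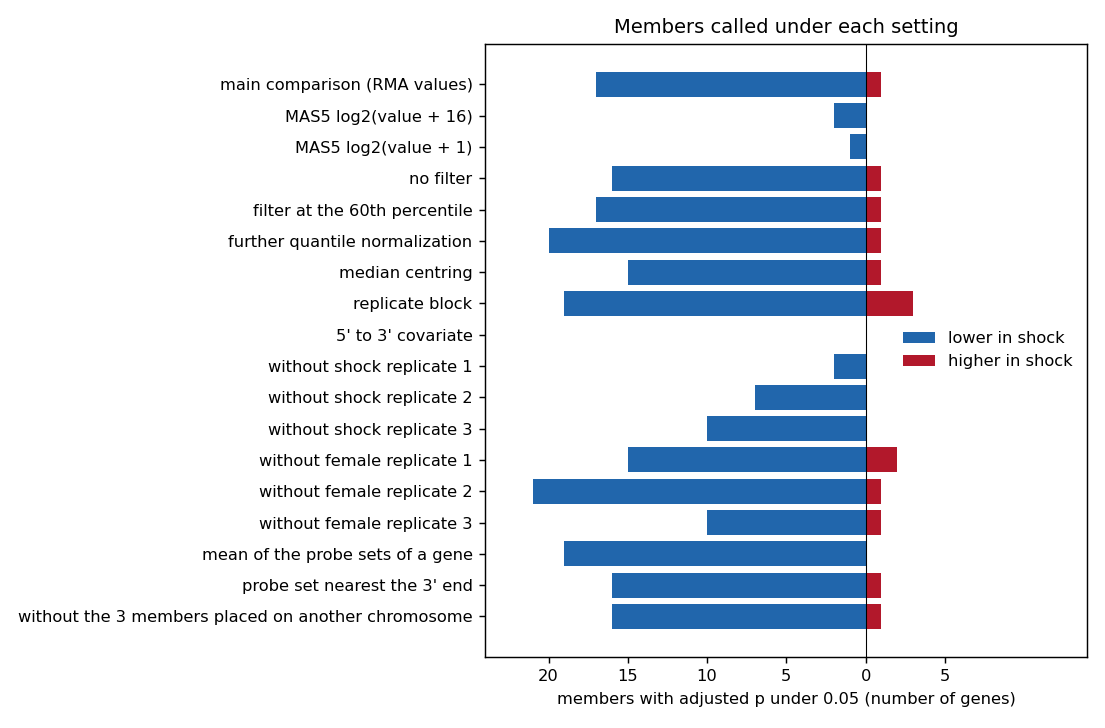
Number of members called lower (blue, to the left) and higher in shock (red, to the right) under the comparison as reported and each alternative, from separate limma fits. Bars reach 17 and 1 in the main comparison. They shrink to 2 or fewer on MAS5 values and without shock replicate 1, and vanish with the 5′ to 3′ covariate.

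Members with several probe sets differed along the transcript. Of the 73 genes, 30 had more than 1 tested probe set, and in 14 of these the probe sets had both signs, though no gene was called in both directions. Over the 128 tested member probe sets, 22 (17.2%) were lower in shock and 3 (2.34%) higher, against 11.5% and 9.31% of all tested probe sets. The 3 higher ones were 2 of Mrpl44 and 1 of Mrpl1, whose difference was 0.37 (adjusted p = 0.0461 in limma).

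In 4 genes a second probe set was lower while the representative was not called. Mrps5 showed this most fully, with differences of -0.63, -0.44, -0.22 and 0.27 in the order of its 4 tested probe sets from 5′ to 3′, of which the one at -0.44 was called (adjusted p = 0.0245 in limma). Mrpl9, a protein with a bacterial counterpart near the base of the L1 stalk, gave -0.65 with its most 5′ probe set (adjusted p = 0.0164 in limma), against 0.16 and 0.36 with the others. Mrps23 gave -0.73 (adjusted p = 0.0134 in limma) beside -0.04 for its representative. Its brightest probe set, which ends in _x_at, gave 0.38 (adjusted p = 0.0753 in limma), with every shock array above every female array. Mrps6 gave -0.62 (adjusted p = 0.00886 in limma) beside -0.13 for its representative. In Mrps6 the called probe set read 9.09, 9.29 and 9.40 in shock and 9.90, 9.88 and 9.84 in female, with no overlap. With a gene's probe sets averaged in place of the representative, 19 members were lower and none was higher. Of all genes so measured, 10.9% were lower and 7.97% higher.

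Over the 10 members with probe sets at least 500 bases apart, the 5′ one had the lower difference in 8, with a median of -0.16 at the 5′ and 0.13 at the 3′ probe set. The direction is that of the arrays' overall 5′ to 3′ signal, which was lower in shock. With that signal as a covariate in limma no member was called, while 1 probe set of the whole table was (0.00370%). The median difference of the members was then -0.21 and its sign was negative for 63 of the 73. The covariate shared 0.645 of its variance with the group, so that this fit had little left to separate the groups with, and the part of the 5′ to 3′ signal in the members' differences cannot be told apart from the group.

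**Figure D5:**
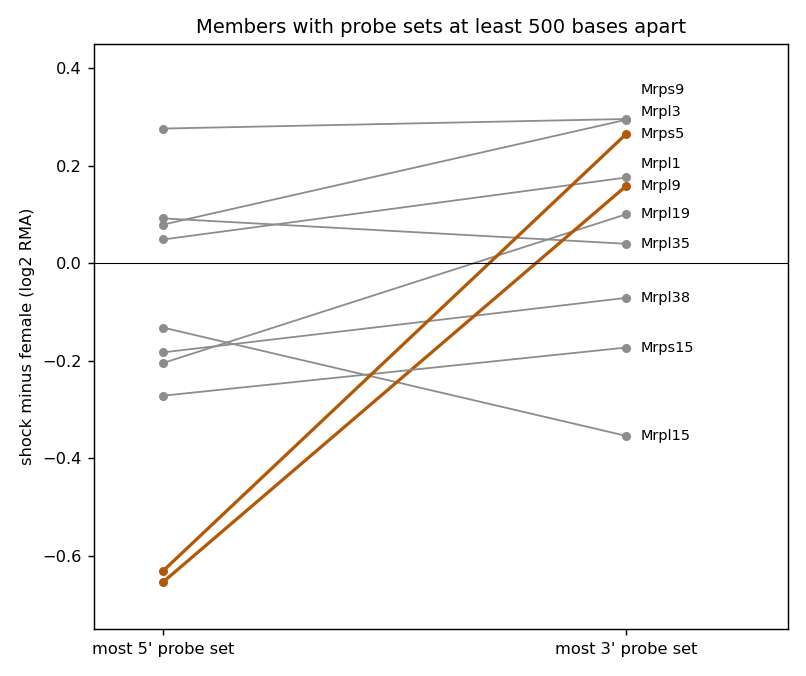
Difference between shock and female (log2 RMA) at the most 5′ and the most 3′ tested probe set of the 10 members whose probe sets lie at least 500 bases apart, a line for each gene. Mrps5 and Mrpl9 are drawn in orange and change sign, from -0.63 to 0.27 and from -0.65 to 0.16. The 3′ value is the higher one in 8 of the 10.

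Promoter features were set beside the differences as a description. The 23 tested members with an ETS core had a median difference of -0.27 with 7 genes lower, and the 41 without one -0.13 with 8 lower and 1 higher. The 10 with an NRF1 core had a median of 0.07 with 3 lower and 1 higher, and the 54 without one -0.15 with 12 lower. With and without a YY1 core the median was -0.13. The 37 with any of the 3 cores had a median of -0.07 with 9 lower and 1 higher. Those without any of them, 27 genes, had -0.17 with 6 lower. For these counts and those of head-to-head neighbours, the shares over all tested genes were 9.40% lower and 10.6% higher. Both called directions occurred with the NRF1 core, at Mrpl17, Mrpl12 and Mrps21, whose probe set is placed on another chromosome, on one side and at Mrpl44 on the other.

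The 18 tested members with a head-to-head neighbour had a median of -0.26 with 5 lower, and the 46 without one -0.10 with 10 lower and 1 higher. Both genes were tested in 15 such pairs, and in 11 of them the differences had the same sign, but in no pair were both called. Mrps7 differed by -0.50 and its neighbour Gga3 by 0.20, uncalled. Mrpl43 differed by -0.41 and its neighbour Twnk, the mitochondrial DNA helicase, by 0.03. Mrpl49 differed by -0.00 beside Fau, a cytosolic ribosomal protein gene, which was lower in shock (-0.67, adjusted p = 0.0106 in limma). In none of these 3 pairs did the call on one gene come with a call on the other.

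Other genes of mitochondrial translation were counted in the same fit, where 9.40% of all tested genes were lower and 10.6% higher. Of 6 proteins of the mitochondrial ribosome with other names, Gadd45gip1 (-0.46, adjusted p = 0.0216 in limma) was lower (16.7%) and 5 were not called, with a median of -0.06. Of 11 tested translation factors, Tsfm, elongation factor Ts, was lower (-0.58, adjusted p = 0.0103 in limma), which is 9.09% of the list, and the median was 0.04. It read 6.68, 6.68 and 6.58 in shock and 7.07, 7.32 and 7.28 in female, so its groups did not overlap. Of 18 tested genes that charge mitochondrial tRNAs, which are synthetases and subunits of the GatCAB amidotransferase, Iars2 was higher and none was lower, with a median of 0.08.

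Among 22 genes for assembly of the ribosome and modification of its RNA, 2 were lower and 2 higher, 9.09% each way and close to the shares over all tested genes. The lower ones were Mpv17l2 (-0.48, adjusted p = 0.0207 in limma) and Rbfa (adjusted p = 0.0364), which act in assembly. The higher ones were Fastkd2 (0.66, adjusted p = 0.0121 in limma), needed for assembly of the large subunit, and Tfb1m (adjusted p = 0.0293), which methylates the small-subunit RNA. In the list of mitochondrial transcription and RNA handling, 4 of 14 were higher (28.6%) and none lower, with a median of 0.18. These were Polrmt (0.62, adjusted p = 0.0124 in limma), the mitochondrial RNA polymerase, Mtpap (0.48, adjusted p = 0.0265 in limma), which adds poly(A) to mitochondrial messages, Pnpt1 and Trmt10c. Polrmt read 9.51, 9.52 and 9.31 in shock and 9.01, 8.64 and 8.84 in female, with the same array, female 2, lowest as in Mrpl44.

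For comparison, 16 of 45 tested cytosolic ribosomal protein genes were lower and 3 higher, with a median of -0.19. Of 19 tested genes for mitochondrial protein import, 5 were lower and none higher, with a median of -0.23. A negative median was thus not particular to the mitochondrial ribosome. Timm17b, counted among the lower import genes, read 6.34, 6.21 and 6.16 in shock and 6.78, 7.14 and 6.87 in female. Its shock arrays lay near or below the filter value, so that call carries little weight. Marker genes of cell types differed between the groups as well. All 8 oligodendrocyte markers had a negative difference, 3 of them called, with a median of -0.47, and their mean level was 9.93 to 10.2 on the shock and 10.3 to 10.9 on the female arrays. Of the tested microglial, vascular and astrocyte markers, 3 of 7, 3 of 7 and 2 of 8 were lower and none higher. Among the lower microglial markers, C1qb read 6.06, 6.17 and 5.97 in shock and 6.56, 7.26 and 6.61 in female. All its shock arrays lay below the filter value, which it passed through the female arrays, so that call carries little weight. Of 8 excitatory neuron markers 3 were lower and 1 higher. Of 6 inhibitory neuron markers, Gad1 and Vip were higher and Pvalb lower, with a median of 0.13, and of 2 tested BLA markers Rspo2 was higher (0.95, adjusted p = 0.0297 in limma). Over all tested genes the shares were again 9.40% lower and 10.6% higher. The mean level of the microglial list was 7.20 to 7.32 on the shock and 7.40 to 7.82 on the female arrays, and that of the vascular list 7.56 to 7.66 and 7.76 to 7.96. The part of these cells in the members' differences was not tested.

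In the authors' deposited table of fold changes, no member had an FDR under 0.05. The smallest was 0.081 for Mrps12, with a fold change of 1.30 for female over shock, and it was also the smallest in the whole of the authors' deposited table. The authors' deposited table gave Mrps11 a fold change of 1.85 (FDR 0.133) and Mrps18a one of 1.71 (FDR 0.127).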

How the data were processed

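RNA from 6 arrays was analysed, 3 per group. Per the submitters' processing notes, the authors deposited log2 values from RMA and linear intensity values from MAS5, with no versions given. They also deposited a table with a signed linear fold change (a score) and ANOVA and FDR p-values, per the file headers. The deposited gene symbols and positions were used as they stand, and the sources used here do not name the genome build of the files.

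Shock minus female was fitted on the RMA values with lmFit and eBayes of limma 3.58.1 (R 4.3.3), with group as the only term, over the 27022 of 45037 probe sets whose mean lay above the 40th percentile (6.31). Every adjusted p in the text is limma's, 2-sided, Benjamini-Hochberg over all tested probe sets, with a threshold of 0.05. Exact p-values and the authors' FDR are named as such. Gene-level shares of all tested genes use the same representative rule as the members. Tables were made with Python 3.11.15 and SciPy 1.17.1, and the fit was tested on simulated data. The number of arrays limits the precision. The replicate numbers were checked as a pairing: the correlations of same-numbered arrays' deviations were 0.01, 0.21 and 0.15, not all over 0.1, so no pairing was used.

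The members, lists and tests were chosen with earlier results of these data known. Named are all called members, in each subunit the 4 with the largest difference in each direction, the 4 brightest and 2 dimmest, those whose second probe set was called, and the Mrps18 paralogues. Some members the rule takes are given without all values. Alternatives covered MAS5 values, filters, scalings, the block, the 5′ to 3′ signal, single arrays left out and other ways to represent a gene. A check without the 3 members placed on another chromosome was added after the data were seen.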

Additional observations from a re-analysis of the deposited data

How the results depend on the processing

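On MAS5 values with a pseudocount of 16, 2 small-subunit genes were lower and 0 large-subunit genes lower or higher. With a pseudocount of 1 these 3 counts were 1, 0 and 0. Of all tested probe sets, 1.89% were lower and 0.122% higher with 16, and 0.970% and 0.0555% with 1. With the 5′ to 3′ covariate all 3 counts were 0, and the medians were -0.20 (small) and -0.22 (large). Leaving out 1 array gave 2 to 7 lower small-subunit genes, 0 to 14 lower large-subunit genes and 0 to 2 higher ones, with medians of -0.16 to -0.08 (small) and -0.20 to -0.088 (large). In these fits 1.05% to 12.2% of all tested probe sets were lower and 0.133% to 12.8% higher. The replicate block gave 3 higher large-subunit genes, adding Mrpl13 and Mrpl9 to Mrpl44, and 19 lower members. Of all tested probe sets, 13.5% were then lower and 12.9% higher, both above the main comparison (11.5% and 9.31%). Mrps11, Mrps18a and the other main calls all remained. Same-numbered arrays did not all correlate best with each other, since shock 1 was closest to female 3 (0.07 against 0.01). With each gene's probe sets averaged, 0 large-subunit genes were higher, against 7.97% of all genes so measured. Without a filter, with the 60th percentile, further quantile normalization, median centring, the probe set nearest the 3′ end, or without the 3 members placed on another chromosome (chosen after seeing the data), 15 to 20 members were lower and 1 higher. Signs turned for Mrpl11 (0.052 with the probe set nearest the 3′ end), Mrpl9 (-0.12 with the covariate, -0.046 with the gene mean), Mrps2 (-0.20 and -0.051 likewise), Mrps5 (-0.045 and -0.047 on the MAS5 scales, -0.26 with the gene mean) and Mrps18c (from -0.11 to 0.017 with 1 array left out, positive without female 3), none of which but Mrpl11 was called. Of 456 single-gene results under alternatives, 341 kept their direction and side of the threshold, 103 lost a call, 3 gained one and 9 changed sign. The cause was not tested.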
